A study of Mus musculus with 6 samples.

Results

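Pfkp and Gapdh were the genes examined, each of which encodes an enzyme of glycolysis. They were found by their symbols among the 3542 genes of the deposited liver table, so they are 2 of 3542. Both were singled out with their values in this same comparison known, and the whole table is a selection: in the authors' own comparison each of the 3542 genes passed an adjusted p-value limit of 0.05 and lay 1 or more from 0 on the log2 scale. The genotype differences of Pfkp and Gapdh are therefore given as descriptions with a standard error (SE) and without a p-value.

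Liver mRNA was sequenced from 3 Mul1(+/+) and 3 Mul1(−/−) mice. Mul1 encodes a ubiquitin and SUMO ligase of the mitochondrial outer membrane, and in the Mul1(−/−) animals the gene was knocked out in the whole body rather than in liver cells alone. Transcript of Mul1 was still counted in the Mul1(−/−) libraries, at 38.2% of the Mul1(+/+) mean. All 6 mice, controls included, were fed a high-fat diet (HFD) for 16 weeks, and in the study the diet was started at 8 weeks of age. Males and females were used in the study, but the sex of each library was not given in the sources used here, nor was the strain. The labels call the cell type hepatocytes, yet pieces of whole liver tissue were used, and of 8 hepatocyte markers only Hnf4a and Tat could be read in the table. A value below is a normalized read count as deposited, and in such bulk samples fewer cells of a type and less RNA per cell cannot be told apart.

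Glycolysis turns glucose into pyruvate, with a net gain of ATP and NADH. Phosphofructokinase (PFK) adds a phosphate to fructose 6-phosphate and is the main committed and most regulated step. It works as a tetramer built from subunits of a liver (Pfkl), a muscle (Pfkm) and a platelet type (Pfkp), and Pfkl is the main type in liver. Glyceraldehyde 3-phosphate dehydrogenase (Gapdh) acts further down, where it makes 1,3-bisphosphoglycerate and NADH. In liver it also runs in reverse during gluconeogenesis, and its transcript is abundant in most tissues, for which reason Gapdh is commonly used as a reference gene.

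On the GRCm38 build (GENCODE M21), Pfkp (ENSMUSG00000021196) is a protein-coding gene at chr13:6579768-6648777 on the minus strand, with a coding sequence of 2352 nucleotides in the transcript used here. Gapdh (ENSMUSG00000057666) is a protein-coding gene at chr6:125161715-125166467, also on the minus strand, with a coding sequence of 1077 nucleotides. Their RefSeq promoters (GRCm38.p6, from 250 bases before to 50 bases after the start) are printed 5′ to 3′ along the gene. The Pfkp promoter lies at chr13:6648722-6649021 and the Gapdh promoter at chr6:125165724-125166023, both on the minus strand. Capitals mark the GC box, which was searched as GGGCGG, the CCAAT box, and the core of the site of hypoxia-inducible factors, which was searched as ACGTG, all on either strand.
Pfkp: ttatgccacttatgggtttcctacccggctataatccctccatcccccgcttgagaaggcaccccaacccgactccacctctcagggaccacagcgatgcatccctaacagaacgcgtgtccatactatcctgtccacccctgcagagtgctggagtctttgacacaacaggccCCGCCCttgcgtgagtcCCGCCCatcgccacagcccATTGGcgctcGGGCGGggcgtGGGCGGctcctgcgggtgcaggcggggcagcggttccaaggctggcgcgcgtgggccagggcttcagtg
Gapdh: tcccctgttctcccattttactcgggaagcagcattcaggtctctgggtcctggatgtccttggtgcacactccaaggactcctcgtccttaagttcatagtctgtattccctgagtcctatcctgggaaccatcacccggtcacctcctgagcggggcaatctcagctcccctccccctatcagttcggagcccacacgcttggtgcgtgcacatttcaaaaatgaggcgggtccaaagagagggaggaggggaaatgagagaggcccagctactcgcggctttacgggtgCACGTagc
The Pfkp promoter held 4 GC boxes and 1 CCAAT box, and these letters were found in 35.7% and 37.4% of the 32851 RefSeq promoters of the same length, respectively. The Gapdh promoter held 1 hypoxia-inducible factor core, which was found in 19.6% of promoters. An E-box (CACGTG, which overlaps the hypoxia-inducible factor core) and a TATA box (TATAAA) were found in neither window, against 7.15% and 13.6% of all promoters. Of the other PFK genes, both lower in Mul1(−/−), Pfkl held 3 GC boxes in its promoter and Pfkm held 0 in each of its promoters. Such matches describe the letters in these windows and no binding was measured. Their relation to the genotype differences was not tested.

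Pfkp, the platelet-type subunit of PFK, was low in Mul1(+/+) HFD-liver and 6.84-fold higher in Mul1(−/−) HFD-liver. The Mul1(+/+) libraries, in the order of their replicate numbers, held 169, 155 and 152 normalized read counts of Pfkp, and the Mul1(−/−) libraries held 767, 1363 and 1122. Every Mul1(−/−) library was above every Mul1(+/+) library, but the groups were without overlap for 90.3% of the table's genes. The group means were 158 ± 8.86 and 1084 ± 299.8 (SD, n = 3 per group), a log2 difference of 2.73 with an SE of 0.39. These values rest on 200, 175 and 186 reads in Mul1(+/+) and 525, 1113 and 1278 reads in Mul1(−/−), recovered from the value of 1 read in each library. Among the 2012 genes of the table that were higher in Mul1(−/−), Pfkp ranked 233 by log2 difference, and 88.4% of them had a smaller one.

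Gapdh was among the more abundant transcripts of the table in Mul1(+/+) HFD-liver and was at 48.0% of that level in Mul1(−/−) HFD-liver. Normalized read counts of Gapdh were 57639, 52298 and 46365 in the Mul1(+/+) libraries, whereas they were 24047, 18506 and 32418 in the Mul1(−/−) libraries. The groups did not overlap, as for 90.3% of the table's genes, and the Mul1(−/−) library nearest to the controls was replicate 3. The means were 52101 ± 5640 and 24990 ± 7004 (SD, n = 3 per group), a log2 difference of −1.09 with an SE of 0.40. Gapdh took 0.444, 0.473 and 0.404% of the reads on the table's genes in Mul1(+/+) and 0.125, 0.121 and 0.309% in Mul1(−/−). These shares also depend on the other transcripts in the total. Mitochondrially encoded ones summed to normalized counts of 1179903 to 1736090 in Mul1(+/+) and 1611959 to 9476506 in Mul1(−/−). Ranked by value within a library, Gapdh took places 36, 30 and 35 of the 3542 genes in Mul1(+/+) and places 80, 129 and 46 in Mul1(−/−). Among the 1530 genes that were lower in Mul1(−/−), Gapdh ranked 1383, and 9.61% of them had a smaller decrease, so that it stood near the fold limit of the table.

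**Figure D1:**
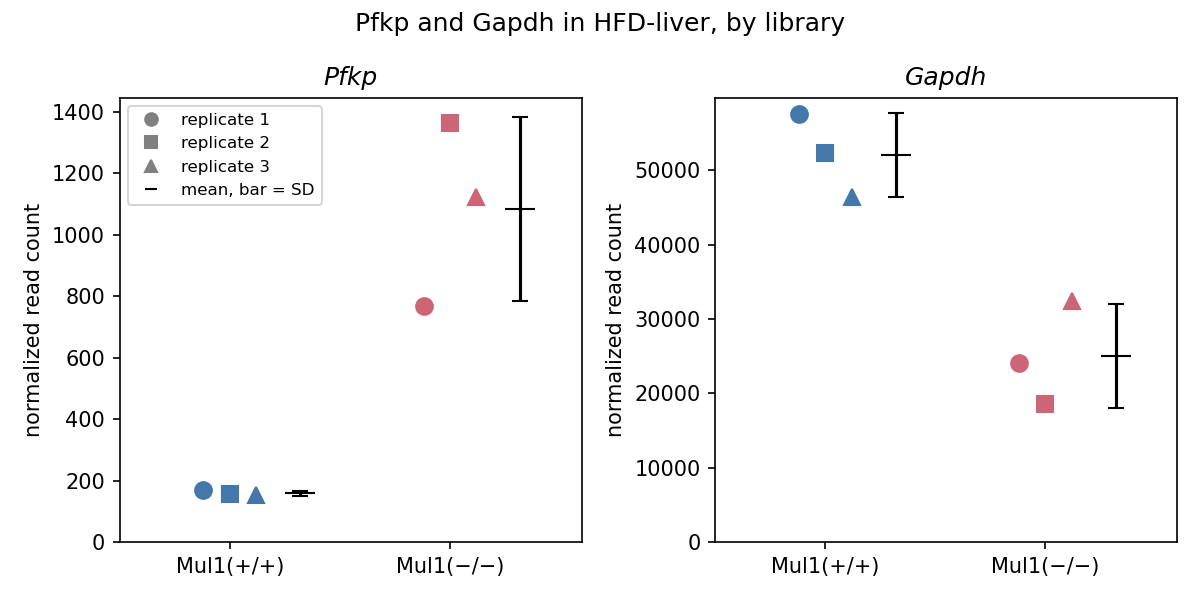
Normalized read counts of Pfkp (left) and Gapdh (right) in each library of Mul1(+/+) (blue) and Mul1(−/−) (red) HFD-liver, with the mean and SD of each group in black and both axes starting at 0. Pfkp lies between 152 and 169 in Mul1(+/+) and between 767 and 1363 in Mul1(−/−), whereas Gapdh lies between 46365 and 57639 in Mul1(+/+) and between 18506 and 32418 in Mul1(−/−).

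The ratio of the genes to each other does not depend on how the libraries were scaled. That it differed more than either gene alone follows from their opposite directions, which were known when they were chosen. The same holds for any higher gene of the table set against any lower gene, so the ratio is given as a description only. The log2 ratio of Pfkp to Gapdh was −8.41, −8.39 and −8.24 in the Mul1(+/+) libraries and −4.97, −3.76 and −4.85 in the Mul1(−/−) libraries. Per kb of coding sequence, Gapdh was 747, 737 and 667 times as high as Pfkp in Mul1(+/+) and 68.5, 29.6 and 63.1 times as high in Mul1(−/−). Gapdh thus remained the more abundant transcript of the pair in every library.

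Replicates of the same genotype were closer to each other for these genes than for most genes of like level. On the log2 scale the SD of Pfkp was 0.08 in Mul1(+/+) and 0.42 in Mul1(−/−), and that of Gapdh was 0.16 and 0.40. The SD pooled over the groups was 0.30 for Pfkp, and 14.1% of the 875 genes with a mean within a factor of 2 of it had a smaller SD. For Gapdh the pooled SD was 0.31, and 10.8% of 74 such genes had a smaller one. Selection by an adjusted p-value favours genes with a small spread, above all those near the fold limit, where Gapdh stood. These places among genes of like level are therefore not independent of how the table was selected. The genotype difference was 9.0 pooled SDs for Pfkp and 3.56 for Gapdh. Both genes and the whole table were selected on this same contrast and these same libraries. These ratios are thus descriptions and no evidence of a genotype effect.

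The other PFK subunit genes stood on the opposite side from Pfkp. Pfkl, the main liver type (chr10:77986947-78010083), had normalized read counts of 3357, 2365 and 2470 in Mul1(+/+) and 919, 496 and 1266 in Mul1(−/−). Pfkm, the muscle type (chr15:98092589-98132451), had 1119, 733 and 1139 in Mul1(+/+) and 302, 163 and 465 in Mul1(−/−). For both genes each Mul1(−/−) library was below each Mul1(+/+) library, with Mul1(−/−) replicate 2 the lowest. Groups without overlap were found for 90.3% of the table's genes. The log2 differences were −1.69 (SE 0.45) for Pfkl and −1.78 (SE 0.47) for Pfkm. By limma each had an adjusted p of 0.0113, which was above the limit of 0.01 used here. The study set 0.01 for adjusted p-values of DESeq2, so these genes were not held to its own test here. The adjusted p was 0.00388 and 0.00384 with limma-trend, but 0.0126 for both by limma with a pseudocount of 0.5. Mul1(−/−) livers held 32.7% of the Mul1(+/+) level of Pfkl and 31.1% of that of Pfkm.

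When the counts were divided by coding length, the make-up of PFK transcripts differed between the genotypes. Pfkp went from 67.4 ± 3.77 to 461 ± 127 per kb, Pfkl from 1167 ± 233 to 382 ± 165 and Pfkm from 426 ± 97.8 to 132 ± 64.5 (mean ± SD, n = 3 per group). The order in Mul1(+/+) was Pfkl, Pfkm and Pfkp in every library. In Mul1(−/−), Pfkp and Pfkl had means that lay within 1 SD of each other, and both were above Pfkm. The sum of all 3 genes was 1985, 1390 and 1607 per kb in Mul1(+/+) and 848, 861 and 1217 in Mul1(−/−), without overlap. On this scale the Pfkp difference did not make up for that of Pfkl and Pfkm. Such a sum depends on how the libraries were scaled, so this holds for the deposited scale only. Relative to Gapdh, Pfkp differed by 3.82 on the log2 scale, and Pfkl and Pfkm by −0.60 and −0.69.

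Pfkp made up 3.61, 4.74 and 4.02% of the PFK sum per kb in Mul1(+/+) and 38.5, 67.3 and 39.2% in Mul1(−/−). The means were 4.12 ± 0.572% and 48.3 ± 16.4%, and Mul1(−/−) replicate 2 stood above the other Mul1(−/−) libraries. Pfkl went from 70.2 to 38.5% of the sum and Pfkm from 25.6 to 13.2%. In reads, the highest Mul1(+/+) share of Pfkp was 4.76% of 3674 PFK reads (95% Wilson interval 4.12 to 5.50) and the lowest Mul1(−/−) share was 38.6% of 1361 (36.0 to 41.2), where the intervals cover counting error only. The log2 ratio of Pfkp to Pfkl was −4.31, −3.92 and −4.01 in Mul1(+/+) and −0.26, 1.46 and −0.17 in Mul1(−/−), so Pfkp counts were above Pfkl counts only in Mul1(−/−) replicate 2. Against the sum of Pfkl and Pfkm, Pfkp differed by 4.45 on the log2 scale between the genotypes, and by 3.88 without Mul1(−/−) replicate 2. These shares come from within each library and do not change with its scale factor, but all 3 genes are of the table and were selected on the same contrast.

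**Figure D2:**
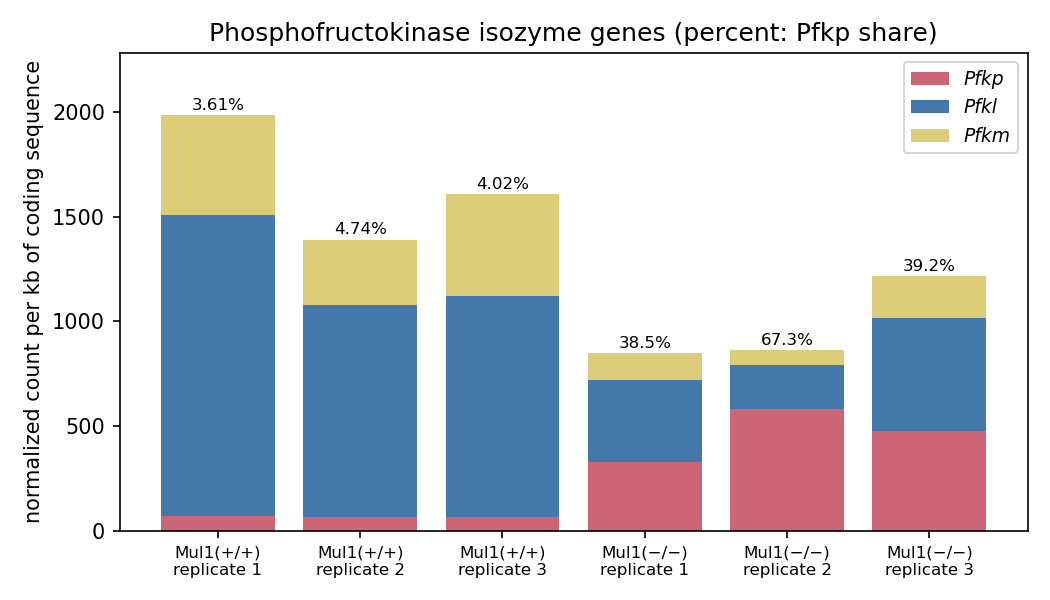
Normalized counts per kb of coding sequence of Pfkp (red), Pfkl (blue) and Pfkm (yellow), stacked for each library, with the Pfkp share of the sum printed above each bar. The Pfkp share is 3.61 to 4.74% in the Mul1(+/+) libraries and 38.5 to 67.3% in the Mul1(−/−) libraries, whose bars are lower in all.

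The PFK genes shared no long run of coding sequence with Pfkp. The coding sequence of Pfkp was 68.1% identical to that of Pfkl, with a longest shared run of 18 nucleotides, and 69.2% identical to that of Pfkm, with a longest run of 20. The last 748 bases of Pfkp (chr13:6579768-6580515) overlap Pitrm1 on the other strand. Whether counting used strand was not given in the sources used here, so reads in this stretch could come from either gene, and Pitrm1 was not analysed here. Gapdh overlaps Iffo1 on the other strand by 68 bases (chr6:125161715-125161782).

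Many transcripts of the mouse genome hold a stretch that is nearly identical to Gapdh. Transcripts of 177 other genes matched it at 90% identity or more over at least 300 bases, of which 168 are annotated as pseudogenes, and 2 of the 177 were in the table. 3000002C10Rik, a transcribed processed pseudogene, matched over 1229 bases at 92.7% identity. It rose from 10.1, 17.7 and 18.8 in Mul1(+/+) to 107, 105 and 46.6 in Mul1(−/−), a log2 difference of 2.35 (SE 0.47, limma adjusted p = 0.00692), and was thus on the opposite side from Gapdh. Peli2, a protein-coding gene for a ubiquitin ligase of innate immune signalling, with a transcript that holds a matching stretch of 1085 bases at 90.8% identity, had 1513, 1159 and 1579 in Mul1(+/+) and 507, 430 and 601 in Mul1(−/−) (log2 difference −1.47, SE 0.38, adjusted p = 0.0111). How reads that match Gapdh and another gene equally well were counted was not given in the sources used here, so the values of 3000002C10Rik and Peli2 are uncertain.

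The rest of the pathway was read from a list of 30 glycolytic enzyme genes, of which 8 were in the table and the others were not analysed here. Besides Pfkp and Gapdh these were Pfkl, Pfkm, Eno1, Eno1b, Eno3 and Pklr. Of the 6, 5 were lower in Mul1(−/−) and 1 (Eno3) was higher, where 1530 of the table's 3542 genes were lower and 2012 higher. The median log2 difference of the 6 was −1.64. Over all genes of the table it was 1.12, which reflects the larger number of higher genes in a table selected to hold none near 0. Of the 6, 1 (Eno1b) was past an adjusted p of 0.01 and an absolute log2 difference above 1 by limma, where 24.1% of the table's genes were (16.7% higher and 7.43% lower in Mul1(−/−)). At an adjusted p under 0.05 all 6 passed, as did 96.3% of the table. The groups did not overlap for any of the 6, as for 90.3% of the table, so these counts do not set the glycolytic genes apart. The table had been selected on the same libraries, and p-values adjusted over it are no independent evidence. Each gene named here as past the threshold no longer passed it when any 1 of the Mul1(+/+) libraries or Mul1(−/−) replicate 2 was left out, with adjusted p-values up to 0.0402. Of the 854 genes past the threshold, 591 were higher and 263 lower, which became 236 and 1031 when libraries were rescaled by their median ratio, 619 and 724 with equal table totals, and 709 and 171 with equal totals without mitochondrial genes.

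Enolase turns 2-phosphoglycerate into phosphoenolpyruvate, and its genes did not all stand on the same side. Eno1, the form found in most tissues, had 27724, 20949 and 24748 in Mul1(+/+) and 7797, 4226 and 15817 in Mul1(−/−) (log2 difference −1.59, SE 0.51, limma adjusted p = 0.0175). Eno3, the muscle form, which is also expressed in liver, had 100.3, 166 and 140 in Mul1(+/+) and 583, 389 and 188 in Mul1(−/−) (log2 difference 1.39, SE 0.49, adjusted p = 0.0229). Eno1b, a near-identical copy of Eno1 whose reads may be shared with it, fell from 38.8, 37.2 and 59.6 to 5.84, 1.22 and 15.8 (log2 difference −2.83, SE 0.65, adjusted p = 0.00846). Its Mul1(−/−) values rest on 4, 1 and 18 reads, and the log2 difference was −2.07 without Mul1(−/−) replicate 2 (adjusted p = 0.0308) and −2.14 with a pseudocount of 5, while the call was lost with a pseudocount of 0.5 (adjusted p = 0.0106). Eno1 and Eno1b were lowest in Mul1(−/−) replicate 2, and Eno3 was highest in Mul1(−/−) replicate 1.

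Pklr encodes the liver pyruvate kinase, the last enzyme of the pathway. It had 13723, 9323 and 13888 in Mul1(+/+) and 6340, 4872 and 5375 in Mul1(−/−) (log2 difference −1.14, SE 0.39, limma adjusted p = 0.0212). Its difference was thus close in size to that of Gapdh. Of 8 regulators of PFK and of glucokinase only Gckr, which encodes the glucokinase regulatory protein, was in the table. Gckr had 7789, 8013 and 4803 in Mul1(+/+) and 15683, 20065 and 7800 in Mul1(−/−), so the groups overlapped (log2 difference 1.01, SE 0.47, adjusted p = 0.0574).

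**Figure D3:**
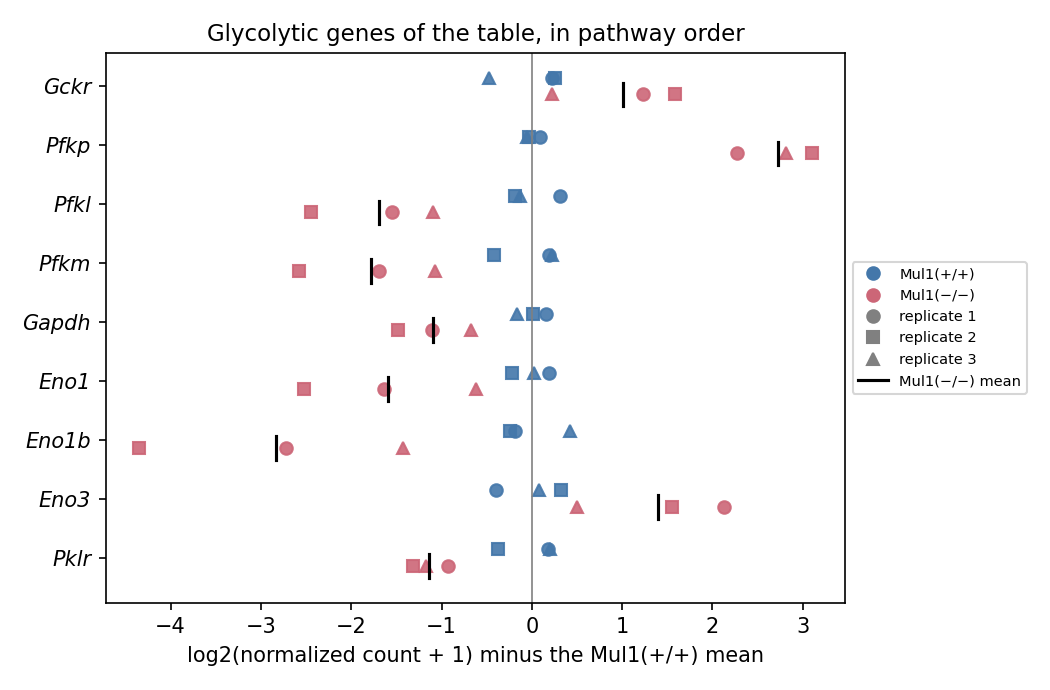
log2(normalized count + 1) of the glycolytic genes of the table and of Gckr in each library, minus the Mul1(+/+) mean of the gene, with Mul1(+/+) in blue, Mul1(−/−) in red, replicates by symbol and the Mul1(−/−) mean as a black line. The Mul1(−/−) means of Pfkp (2.73), Eno3 (1.39) and Gckr (1.01) lie to the right, and those of the other genes lie between −2.83 (Eno1b) and −1.09 (Gapdh).

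The Mul1(−/−) libraries took much the same order over the glycolytic genes as over the table. Replicate 2 was farthest from the Mul1(+/+) mean for 7 of the 8 glycolytic genes, Pfkp and Gapdh among them, and for 61.9% of the table's genes. Replicate 3 was the nearest for 6 of the 8 and for 67.3% of the table. For Pfkp the nearest was replicate 1, at 767.

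Genes with the most similar profile were sought among 2301 protein-coding genes with a mean of at least 100, by the root mean square (RMS) difference of log2 values centred on each gene's mean over the 6 libraries. For Pfkp these were Rragd (a GTPase of amino acid signalling to mTORC1), Hist1h4h (a histone H4 gene), Casp12 and Casp4 (inflammatory caspase genes) and Rpl32 (a ribosomal protein gene), with an RMS difference of 0.25, 0.32, 0.33, 0.37 and 0.38. For Gapdh they were Cyp2d26 (a cytochrome P450), Pafah2 (a platelet-activating factor hydrolase), Ghdc, Psmd3 (a proteasome subunit) and Gnl1, at 0.05, 0.05, 0.07, 0.08 and 0.09. The log2 differences of these 5 were −1.07, −1.17, −1.07, −1.09 and −1.25.

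Long and short transcripts of the table tended to opposite sides, and neither Pfkp nor Gapdh stood on the side most common for its length. Of 273 protein-coding genes with a transcript length within 20% of the 1273 nucleotides of Gapdh, 216 (79.1%) were higher in Mul1(−/−), whereas Gapdh was lower. Of 702 genes within 20% of the 4145 nucleotides of Pfkp, 198 (28.2%) were higher, whereas Pfkp was higher. Over all 2839 protein-coding genes 47.9% were higher. The part of transcript length in the differences was not tested.

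Since Gapdh is often used to scale other transcripts, every gene was also read relative to Gapdh in its own library. Of the 1529 other genes that were lower in Mul1(−/−), 145 (9.48%) were then higher. This scaling shifted the median of all genes by 1.09 on the log2 scale, so the number is another description of the place of Gapdh among the lower genes, close to the fold limit of the table. It was 50 with Mul1(+/+) replicate 2 left out, 383 with Mul1(+/+) replicate 3 left out and 364 with Mul1(−/−) replicate 3 left out. The count of genes past the threshold went from 591 higher and 263 lower to 1647 higher and 24 lower. Pfkp then differed by 3.82 on the log2 scale, and Pfkl and Pfkm by −0.60 and −0.69. Mul1 itself had 3172, 3232 and 3423 in Mul1(+/+) and 1037, 965 and 1753 in Mul1(−/−), and its log2 difference went from −1.44 to −0.35 relative to Gapdh.

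Other genes in common use as references also differed, in both directions. Of a list of 25, 10 were in the table with 5 higher and 5 lower, and of the 9 besides Gapdh 4 passed the threshold by limma, 3 of them higher and 1 lower, against 24.1% of the table (16.7% higher and 7.43% lower). Rps18 and Rpl13a (ribosomal proteins) and Tfrc (the transferrin receptor) rose by 2.86, 2.16 and 2.18 on the log2 scale, and Eef2 (translation elongation factor) fell by 1.81. Tfrc no longer passed under median ratio rescaling or with a pseudocount of 0.5, nor did Eef2 with equal totals without mitochondrial genes. Hprt, which did not pass, differed by 1.37, and Polr2a, Sdha and Gak by −1.18, −1.48 and −1.72, also without passing. Relative to Gapdh, Polr2a was the closest to it at −0.09 and Rps18 the farthest at 3.96. With all lists read from a table of changed genes, nothing is said of reference genes outside it.

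**Figure D4:**
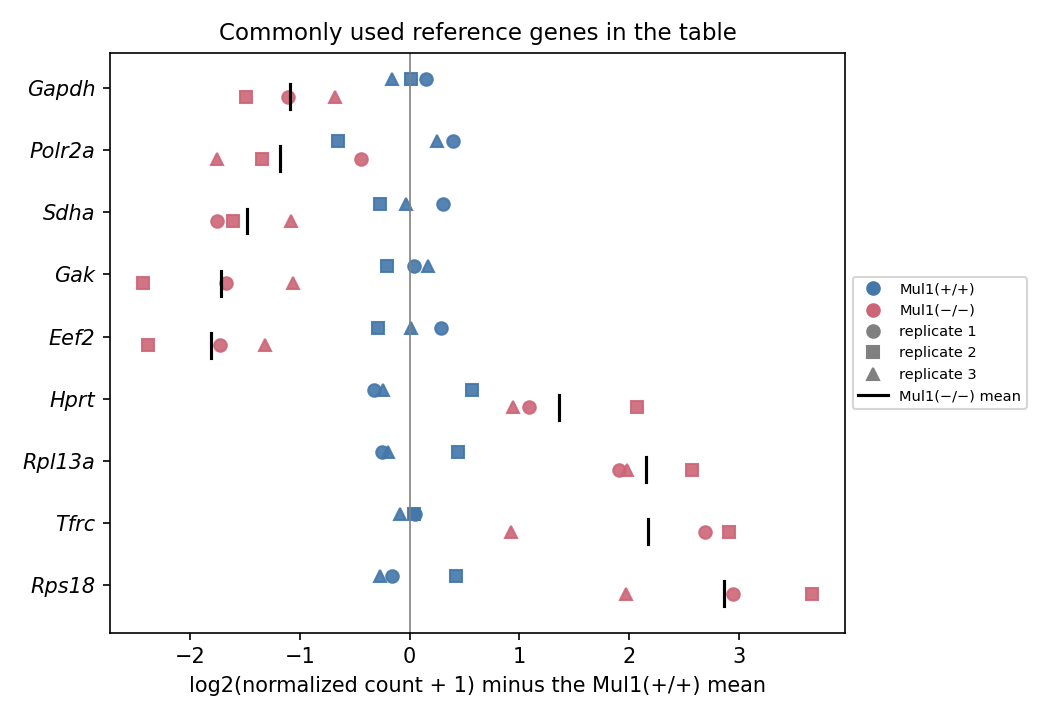
log2(normalized count + 1) of 9 reference genes of the table in each library, minus the Mul1(+/+) mean of the gene, with the Mul1(−/−) mean as a black line. Gapdh, at −1.09, has the mean closest to 0, and the means range from −1.81 (Eef2) to 2.86 (Rps18).

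Genes that feed or leave glycolysis were few in the table. Of 70 genes of gluconeogenesis, sugar and lactate transport, pyruvate entry, fructose, pentose phosphate, glycogen and cytosolic NAD shuttles 16 were in the table, 5 higher and 11 lower. By limma 0 of them passed the threshold, against 24.1% of the table, and all 16 had an unadjusted p under 0.05, as did 3416 of the 3542 genes. The log2 differences farthest from 0 in their lists were −2.08 for Slc2a5 (a fructose transporter), −1.78 for Pdk2 (pyruvate dehydrogenase kinase), −1.22 for H6pd (hexose 6-phosphate dehydrogenase), −1.91 for Pgm2 (a phosphoglucomutase) and −2.01 for Gpd1 (glycerol 3-phosphate dehydrogenase). The 5 higher genes included Mpc2 at 1.21 and Pdp1 at 1.26, which are 2 of the 3 genes of pyruvate entry. Slc5a1 of the transporter list was higher too, at 1.39. None of the 7 genes of gluconeogenesis, a pathway that shares Gapdh, was in the table.

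Of 16 regulators of glycolytic transcription 7 were in the table, 2 higher and 5 lower. Myc, a factor that raises the transcription of glycolytic genes in many cell types, rose by 3.00 on the log2 scale (limma adjusted p = 0.00591) and passed the threshold. Hnf4a, a hepatocyte nuclear factor, differed by −1.81 without passing it. The table held 4 of 12 genes of the hypoxia response, of which 2 were higher and 2 lower, with Car9 at 1.58, Egln3 at −1.47 and Vegfa at 1.35. The Car9 difference rested on Mul1(−/−) replicate 1, at 99.4, since the other Mul1(−/−) libraries had 6.12 and 7.90 and the Mul1(+/+) libraries 3.37, 6.20 and 6.53. By limma 0 of the 4 passed the threshold, against 24.1% of the table, and 3 had an unadjusted p under 0.05, as did 3416 of the 3542 genes.

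Markers of other cell types were read beside Pfkp, since it is the platelet type of PFK. Of 8 platelet and megakaryocyte markers only Pf4 was in the table, at 2.45 to 28.7 in Mul1(+/+) and 48.2 to 108 in Mul1(−/−). Its 2.45, in Mul1(+/+) replicate 3, rests on a few reads, as 1 read there has a value of 0.817. Of 7 erythroid markers 1 (Alas2) was in the table and was lower, at 5052 to 7563 in Mul1(+/+) and 803 to 4287 in Mul1(−/−). Of 5 neutrophil markers 1 (Csf3r) was in the table, and its groups overlapped. Of 6 cholangiocyte markers 4 were in the table, all higher, with a summed count of 1292 to 1891 in Mul1(+/+) and 4878 to 5100 in Mul1(−/−), and 2 of them (Epcam and Spp1) passed the threshold, which 24.1% of the table did. Neither passed it under median ratio rescaling, and Spp1 did not with equal table totals. Of 5 T cell markers 2 were in the table and summed to 13.9 to 60.2 and 89.1 to 202. Of 6 stellate cell markers 1 (Dcn) was in the table, at 3452 to 4335 and 5569 to 24011.

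The hepatocyte markers Hnf4a and Tat summed to 60281 to 95937 in Mul1(+/+) and 25149 to 31946 in Mul1(−/−). Of 6 endothelial markers 2 were in the table, at 3352 to 3910 and 1184 to 2140. No marker of the table was at 0 in any library, and the macrophage, B cell, muscle and adipocyte lists had no gene in it. All 27 mitochondrially encoded transcripts of the table were higher in Mul1(−/−) by their mean, and their sum was 1179903 to 1736090 in Mul1(+/+) and 1611959 to 9476506 in Mul1(−/−). The part of cell make-up and of mitochondrial reads in the Pfkp and Gapdh differences was not tested.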

How the data were processed

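Liver mRNA of 3 Mul1(+/+) and 3 Mul1(−/−) mice on HFD was measured by RNA-sequencing at GENEWIZ. The authors deposited normalized read counts per gene and library, in a table of genes selected with DESeq2 and its Wald test. The log2 fold changes and the p-value columns that the authors deposited are results of their comparison and were not used, except to see how the table was selected. The aligner, the counting tool and the genome build were not given in the sources used here.

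Values were taken as log2(value + 1), where the 1 is a pseudocount, with low values kept, and a fold change on this scale understates that of low genes. limma 3.58.1 in R 4.3.3 was fitted over all 3542 genes with genotype as the only term, with Benjamini-Hochberg adjustment. It was tested on simulated data in which 200 genes were changed. In the deposited table every gene had been selected as changed, so that test does not vouch for the p-values here. Each p-value sets a difference against the spread between these libraries. The threshold was an adjusted p under 0.01 with an absolute log2 difference above 1. The value of 1 read, 0.817 to 1.46 per library, was recovered from the low values, and 100% of values under 10000 were whole multiples within 0.1 read. Reads on the table's genes were 11932163 to 15385822 per library, a part of each library.

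Coordinates and lengths are from GENCODE M21 (3529 genes matched, 13 not), and matching sequences were sought with BLAST 2.17.0. Python 3.11.15 was used for the rest. The genes named were Pfkp, Gapdh, genes with matching sequence, the table's glycolytic and PFK regulator genes, at most 3 genes of each other list, the 5 nearest profiles and Mul1. Rps18, Rpl13a, Tfrc, Eef2, Hprt, Polr2a, Sdha and Gak were named after their values were seen. Some genes of the lists are counted but not reported one by one here. All genes and lists were chosen with earlier results of these data known. Alternatives were other pseudocounts, rescalings, a filter, limma-trend, a replicate block and leaving out each library. Whether replicate numbers pair the libraries was not given in the sources used here. Correlations of deviations from the group means were 0.02, 0.35 and 0.05 between same-numbered libraries and −0.20 to 0.13 between the others. They do not settle whether the libraries were paired.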

Additional observations from a re-analysis of the deposited data

How the results depend on the processing

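Pfkp and Gapdh kept their direction under every alternative run, which does not set them apart. Each of the 3542 genes had been selected at 1 or more from 0 on the log2 scale in this same contrast. Scaling to Gapdh aside, 2012 genes were higher in Mul1(−/−) under each alternative, except 2009 without Mul1(−/−) replicate 1. Rescaling by the median ratio, which shifted the median of all genes by −0.66, gave log2 differences of 2.07 for Pfkp and −1.75 for Gapdh. Leaving out each library gave 2.54 to 2.96 for Pfkp and −1.30 to −0.89 for Gapdh. The log2 difference of Pfkp against Pfkl and Pfkm was 3.88 to 4.74 when each library was left out. The number of genes that changed direction relative to Gapdh, which only describes where Gapdh stood among the lower genes, was 50 to 383 when each library was left out.

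The number of genes past the threshold, 854, depended on the settings. It was 3380 at an adjusted p under 0.05, 1399 with a pseudocount of 5, 1343 with equal table totals, 1869 with limma-trend and 639 with a pseudocount of 0.5. Leaving out each library gave 10 to 2673, with 25, 13 and 46 without Mul1(+/+) replicates 1, 2 and 3, 10 without Mul1(−/−) replicate 2 and 2673 without Mul1(−/−) replicate 3. With the replicate block limma called 0, with 3280 at an adjusted p under 0.05 and 3314 at an unadjusted p under 0.05. The sources used here did not say that replicate numbers pair the libraries, and the block adds terms to a fit of 6 libraries. The SE was 0.32 for Pfkp and 0.33 for Gapdh with the block, against 0.39 and 0.40 without it. The count of 0 is thus no measure of a weaker effect. Of the 6 glycolytic genes besides Pfkp and Gapdh, 1 was called. The count was 6 at an adjusted p under 0.05, 3 with a pseudocount of 5, 4 with the median ratio, 3 with equal table totals, 4 with limma-trend and 0 to 5 when each library was left out. With limma it was 0 with a pseudocount of 0.5 and 0 with the replicate block, while 6 had an unadjusted p under 0.05 in both. The cause of these changes was not tested.

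Count tests with edgeR and DESeq2 on recovered reads were planned and not run. Pfkp rested on only 175 to 200 reads in each Mul1(+/+) library, and 3 mice per group limit the precision.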
